A study of Mus musculus with 4 samples.

Results

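The lysosomal genes described here are 5 cathepsins (Ctsa, Ctsb, Ctsd, Ctsl and Ctsz), 4 membrane proteins (Lamp1, Lamp2, Cd63 and Npc1) and the transcription factor Tfeb. They were chosen by name, not by their values. Every probe whose gene name on the array, or whose current symbol for the RefSeq transcript it was designed on, was among these 10 genes was taken. This gave 18 of the 41174 non-control probes, for 10 of 27666 gene names. Ctsa was found under its older name Ppgb and Tfeb under Tcfeb.

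The cells were B16-F10, an established mouse melanoma line that makes pigment. In each of 4 replicates, which were passages 14, 16, 18 and 19 of the line, cells given an agonist goat antibody against mouse TIM3 for 2 h were set against cells of the same passage given unspecific goat IgG for 2 h. The IgG dose was 15 ug/ml, and the labels of 3 replicates repeat that dose for the antibody. RNA of antibody-treated cells carried the dye Cy5 and that of IgG-treated cells Cy3 on every 2-colour array, so a dye effect and an effect of the antibody cannot be told apart. All values below are log2 ratios of Cy5 over Cy3 on 1 array, above 0 where the signal was higher after the antibody. The replicates are passages of 1 line, so p-values measure the spread between these passages only.

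Lysosomes are acidic compartments in which proteins, lipids and whole organelles are broken down. Cathepsins are their proteases, made as inactive precursors, sorted to the lysosome through mannose-6-phosphate and other signals, and activated there by cleavage. LAMP proteins coat the inner face of the lysosomal membrane with sugar, and TFEB switches on many lysosomal genes by binding a palindromic E-box in their promoters. In pigment cells the melanosome is a relative of the lysosome and shares part of its membrane proteins, CD63 among them.

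The array reads each gene through probes of 60 bases. The probes of Ctsb, and probes 1 and 2 of Lamp2, gave ratios of opposite sign. Sequences are shown for both Ctsb probes and for Lamp2 probes 2 and 3, which both had means below 0. That of Lamp2 probe 1 is not shown. For 4 of these probes the following are the first 30 bases, or the last 30 where these hold AATAAA, the usual signal for cutting and polyadenylating a transcript, shown in capitals; positions are those of the array files (mm7). The bright Ctsb probe (probe 1) lies at chr14:58006948-58007007 and the dim one (probe 2) at chr14:58009173-58009232. Lamp2 is on the minus strand, with probe 2 at chrX:33497384-33497443 and probe 3 at chrX:33494233-33494292. Probes 1 and 2 were designed on different RefSeq transcripts of Lamp2, and probe 3 on a cDNA clone.
Ctsb probe 1: atgtctgtgccAATAAAccaattctccctc
Ctsb probe 2: acgcagcaggcttaagaggggagcagacta
Lamp2 probe 2: tgtcttaagaagctttggccaaattgggat
Lamp2 probe 3: gcatgagtagaactttaaaaatggattagg
AATAAA stood in 4.78% of all non-control probes on the given strand and in 2 of the 18 probes described here (its complement in 4.25% and 2). Whether the other stretches are exonic, intronic or UTR was not analysed here.

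Of the 18 probes, 17 were tested: each of these was well above background in Cy3 and in Cy5 on all 4 arrays. The other, Npc1 probe 2, was not well above background on any array. In limma's test of each probe's mean log2 ratio against 0, with p-values adjusted by Benjamini-Hochberg over the whole set of 26567 tested probes, 4 member probes were higher, 6 were lower and 7 did not pass an adjusted p of 0.05. Over all tested probes 27.8% were called, 14.2% higher and 13.6% lower. The changes were small: called values lay between 0.11 and 0.23 in size, and the largest fold in either direction was 1.18. The median over the 17 probes was -0.02, against 0.01 over all tested probes, and the median size 0.13 against 0.08. On all 4 arrays 12 of the 17 had the same sign. The share of all tested probes that did so was not counted, so this is no trait particular to these genes.

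**Figure D1:**
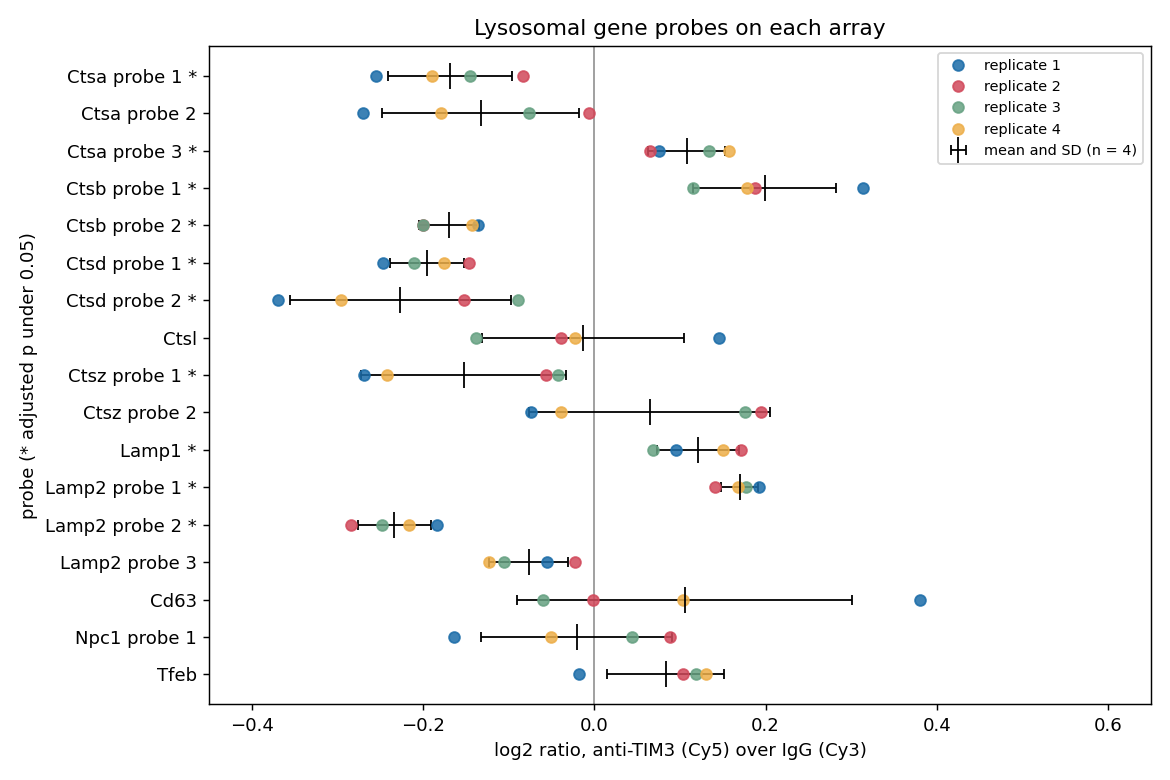
Log2 ratio of each of the 17 tested probes (rows) on each of the 4 arrays (coloured points), with the mean as a black tick and the SD as a bar; an asterisk marks an adjusted p under 0.05. Lamp2 probe 1 and Lamp2 probe 2 sit on opposite sides of 0 on every array, while Cd63 spreads from -0.06 to 0.38; with median centring in place of loess the values of 8 of these probes below 0 lie above 0.

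Ctsd, the aspartic protease of the lysosome, had lower signal after the antibody at both of its probes. Probe 1 (chr7:138803337-138803396) read -0.25, -0.15, -0.21 and -0.18 on arrays 1 to 4. All 4 arrays were below 0, and the mean was -0.20 ± 0.04 (SD, n = 4; 95% interval -0.27 to -0.12; adjusted p = 0.00495). Probe 2 joins exons across an intron (chr7:138804003-138804156, spanning 154 bases on the genome), so it was designed on spliced message. Its 60 bases are shown because they are the read of mature Ctsd message.
Ctsd probe 2: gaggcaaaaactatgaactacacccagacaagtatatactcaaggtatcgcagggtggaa
This probe read -0.37, -0.15, -0.09 and -0.30, again below 0 on every array, with a mean of -0.23 ± 0.13 (adjusted p = 0.0110). The 2 probes differed by 0.03 ± 0.12, less than the spread between arrays (exact sign-flip permutation test over arrays, two-sided, p = 0.5). Ctsd was the only one of the 5 genes with more than 1 tested probe at which all of the gene's probes were called in 1 direction. In the authors' processed signals, as deposited, the means were -0.38 (adjusted p = 0.0204) and -0.21 (0.0620). With arrays only centred on their medians, and no curve fitted over intensity, both values turned to above 0, at 0.42 and 0.18. The median of all tested probes stood at 0.15 there. Tested probes from 15 to 16 in mean log2 intensity, as probe 1, had a median of 0.71. Those from 12 to 15, as probe 2, had a median of 0.39.

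Ctsb, a cysteine protease, was read in opposite directions by its 2 probes. The bright probe read 0.31, 0.19, 0.12 and 0.18, all above 0, with a mean of 0.20 ± 0.08 (adjusted p = 0.00831). The dim probe, 2225 bases further along the chromosome, read -0.14, -0.20, -0.20 and -0.14, all below 0, with a mean of -0.17 ± 0.04 (adjusted p = 0.00782). The difference was 0.37 ± 0.06 and had the same sign on all 4 arrays (exact sign-flip permutation test, p = 0.13, the smallest 4 arrays can give). Net of local background, the bright probe gave 20950 to 45900 units of Cy3 signal and the dim probe 94.3 to 178. After a trend over intensity and probe base composition was removed from each array, the bright probe's mean was 0.05 (adjusted p = 0.307) and the difference 0.16 ± 0.04. At that bright level 41.9% of all tested probes were called higher.

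Ctsz, a cysteine carboxypeptidase also called cathepsin X, was also read differently by its 2 probes. Probe 1 (chr2:174172977-174173036) read -0.27, -0.06, -0.04 and -0.24, with a mean of -0.15 ± 0.12 (adjusted p = 0.0407). Probe 2 (chr2:174172121-174172180), 856 bases away, read -0.07, 0.19, 0.18 and -0.04, with a mean of 0.06 ± 0.14 (adjusted p = 0.372). Arrays 1 and 4 were low and arrays 2 and 3 high at both probes, and the distance between them hardly moved: -0.20, -0.25, -0.22 and -0.20, with a mean of -0.22 ± 0.02 (exact p = 0.13). The call of probe 1 was lost in the deposited ratios (-0.22, adjusted p = 0.0661) and without replicate 1 or replicate 4. With median centring alone its value was 0.39, where the median of tested probes from 12 to 15 in mean log2 intensity was also 0.39.

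Ctsl, the main cysteine endopeptidase beside Ctsb, showed no change past the test. Its probe (chr13:62192273-62192332) read 0.15, -0.04, -0.14 and -0.02, with a mean of -0.01 ± 0.12 (95% interval -0.12 to 0.09; adjusted p = 0.849). With the trend over intensity and base counts removed it passed, at -0.13 (adjusted p = 0.0448).

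Ctsa, a serine carboxypeptidase that also shields the lysosomal beta-galactosidase and neuraminidase from degradation, had 3 probes. Probe 1 (chr2:164579943-164580002) read -0.26, -0.08, -0.15 and -0.19, all below 0, with a mean of -0.17 ± 0.07 (adjusted p = 0.0134). Probe 2 (chr2:164579542-164579601) read -0.27, -0.01, -0.08 and -0.18, with a mean of -0.13 ± 0.12 (adjusted p = 0.0598). These 2 probes lie 401 bases apart and differed by -0.04 ± 0.04 (exact p = 0.375). Probe 3 (chr2:164581587-164581646) read 0.08, 0.06, 0.13 and 0.16, all above 0, with a mean of 0.11 ± 0.04 (adjusted p = 0.0474). It stood apart from probe 1 by 0.28 on the log2 scale (probe 1 minus probe 3 -0.28 ± 0.09) and on all 4 arrays. Its call was lost when any 1 replicate was left out and with the intensity and composition trend removed (0.06, adjusted p = 0.200); that of probe 1 was lost without replicate 4 and in the deposited ratios (-0.15, adjusted p = 0.0745), and with the trend removed (-0.10, 0.0688). Median centring alone put probe 1 at 0.27 and probe 2 at 0.30. The median of tested probes from 12 to 15 in mean log2 intensity was 0.39 there.

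Among the membrane proteins, Lamp2 gave the steadiest ratios and the widest gap between probes. LAMP2 is a receptor for chaperone-mediated autophagy in 1 of its isoforms, and its isoforms arise from alternative last exons. Probe 1, the first in the direction of transcription, read 0.19, 0.14, 0.18 and 0.17, with a mean of 0.17 ± 0.02 (adjusted p = 0.00703). Probe 2, further on, read -0.18, -0.29, -0.25 and -0.22, with a mean of -0.23 ± 0.04 (adjusted p = 0.00243), the largest mean in size among the member probes. No value of one overlapped the other: the difference was 0.38, 0.43, 0.43 and 0.38 on arrays 1 to 4, with a mean of 0.40 ± 0.03 (exact p = 0.13). Probe 3, a further 3151 bases on, read -0.06, -0.02, -0.11 and -0.12, with a mean of -0.08 ± 0.05 that did not pass (adjusted p = 0.127). It passed with the intensity and composition trend removed, at -0.13 (adjusted p = 0.0254).

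The gap between Lamp2 probes 1 and 2 was 0.40 ± 0.04 in the deposited ratios and 0.35 ± 0.04 with the intensity and composition trend removed. Both probes kept their direction and call in each. With median centring alone probe 2 lay at 0.19, above 0, and probe 1 at 0.66. The median of tested probes from 12 to 15 in mean log2 intensity was 0.39 there. Between the 2 brightest tested probes of 6031 named genes with more than 1, the median absolute difference was 0.10 and the 95th percentile 0.33. Probes called in both directions were found at 3 of the 5 member genes with more than 1 tested probe (Ctsa, Ctsb and Lamp2), and at 4.99% of those 6031 genes. In the deposited ratios this left Ctsb and Lamp2 (2 of 5, against 2.69%), and with the trend removed Lamp2 alone (1 of 5, against 5.57%).

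**Figure D2:**
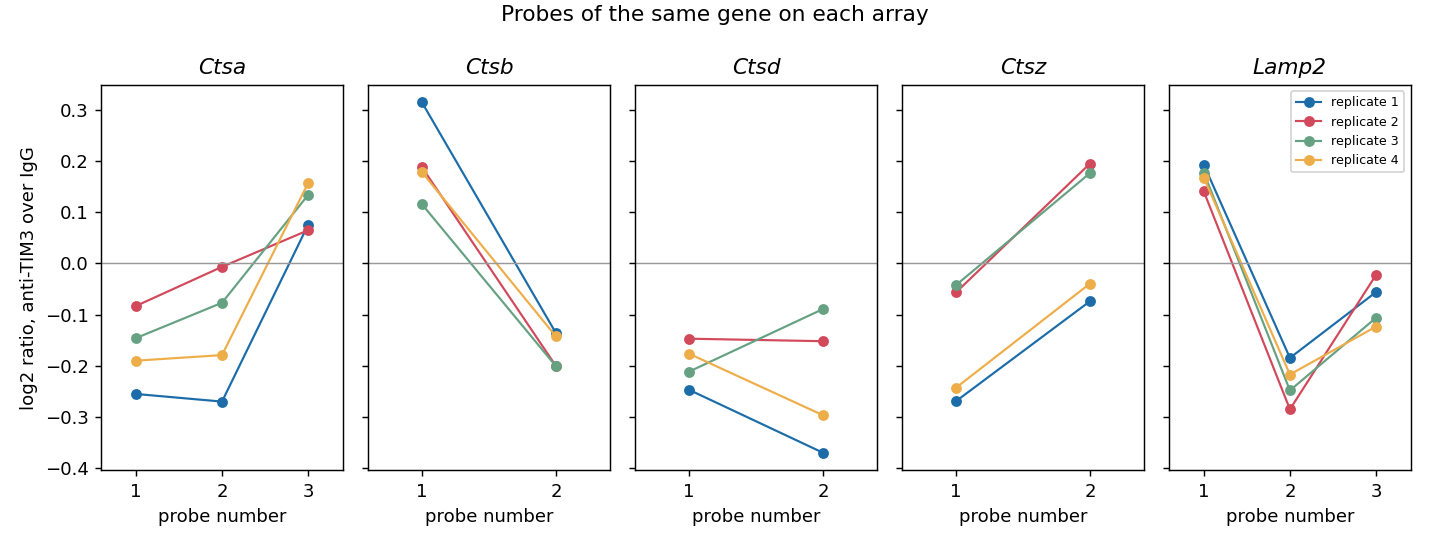
Log2 ratio (vertical axis) of each tested probe (horizontal axis, by number) of the 5 genes with more than 1, with 1 line per array. The lines of Lamp2, Ctsb and Ctsz run nearly parallel, with probe differences of 0.40 ± 0.03, 0.37 ± 0.06 and -0.22 ± 0.02, while those of Ctsd cross; with median centring alone the probes of Ctsd, Ctsa probes 1 and 2, Ctsz probe 1 and Lamp2 probe 2 lie above 0.

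By the 4 log2 ratios, the genes nearest to Lamp2 probe 2 among 14482 genes measured on all arrays included Antkmt and Rsrc2, at Euclidean distances of 0.0085 and 0.0378. Their means were both -0.23.

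Npc1, which exports cholesterol from the lysosome, showed no change past the test. The measured probe (chr18:12540769-12540828) read -0.16, 0.09, 0.04 and -0.05, with a mean of -0.02 ± 0.11 (95% interval -0.12 to 0.08; adjusted p = 0.759). Its other probe gave a net Cy3 signal of 29.2 to 48.0 and has only a bound in both channels, so no ratio is given.

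Lamp1, the other major glycoprotein of the lysosomal membrane, passed the test with a small rise. Its probe (chr8:13149356-13149415) read 0.10, 0.17, 0.07 and 0.15, all above 0, with a mean of 0.12 ± 0.05 (adjusted p = 0.0325). The call was lost when any 1 replicate was left out. In the deposited ratios the mean was 0.00 (adjusted p = 0.978), and with the trend removed 0.01 (0.902).

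Cd63, a tetraspanin of lysosomes, melanosomes and exosomes, had the brightest of the member probes and the widest spread between arrays. Its probe joins exons (chr10:128413370-128413583, spanning 214 bases on the genome) and is shown because it reads spliced message.
Cd63: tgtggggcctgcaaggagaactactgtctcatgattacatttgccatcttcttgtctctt
It read 0.38, 0.00, -0.06 and 0.10; array 1 was high and the others lay around 0. The mean of 0.11 ± 0.20 did not pass (95% interval -0.04 to 0.25; adjusted p = 0.246). The deposited ratios gave -0.12 (adjusted p = 0.218).

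Tfeb, the gene of the set that encodes a transcription factor, was read by a probe that joins exons (chr17:45925537-45926064, spanning 528 bases on the genome).
Tfeb: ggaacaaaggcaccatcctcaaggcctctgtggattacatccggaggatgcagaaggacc
It read -0.02, 0.10, 0.12 and 0.13, with array 1 low and the other 3 close together. The mean of 0.08 ± 0.07 did not pass (95% interval -0.0024 to 0.17; adjusted p = 0.128). With the intensity and composition trend removed it passed, at 0.14 (adjusted p = 0.0198).

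TFEB and its relatives bind CACGTG, with flanking bases TCACGTGA at many lysosomal genes, so the promoters of the set were searched for both. RefSeq (GRCm38.p6) gave 11 promoters for 8 of the genes, each reaching from 250 bases before the start site to 50 after it; Ctsb and Npc1 had no entry. Both motifs are palindromes, so a match lies on both strands, and the longer contains the shorter. CACGTG was present in the promoters of 4 of the 8 genes (Ctsa, Ctsd, Ctsl and Lamp1) and in 7.15% of all 32851 promoters. TCACGTGA was present at 2 (Ctsa and Ctsd), against 0.974% of all promoters. The member counts are by gene, and a gene can have several promoters, while the shares are by promoter. The windows of Ctsd (chr7:142387893-142387952, minus strand), Ctsa (chr2:164833743-164833772, plus strand) and Lamp1 (chr8:13159096-13159155, plus strand) are shown, with the motif in capitals, because these genes carry the longer motif or, at Lamp1, 4 copies of the shorter.
Ctsd promoter: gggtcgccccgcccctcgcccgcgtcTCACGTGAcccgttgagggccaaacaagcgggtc
Ctsa promoter: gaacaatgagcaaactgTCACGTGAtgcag
Lamp1 promoter: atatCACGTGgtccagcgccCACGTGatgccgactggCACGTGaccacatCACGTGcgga
The ratios of the 4 genes with CACGTG ran in no common direction: Ctsd was lower at both probes, Lamp1 higher, Ctsa called both ways, and Ctsl at -0.01. Under median centring alone, every probe of these genes lay above 0: Ctsd at 0.42 and 0.18, Ctsa at 0.27, 0.30 and 0.26, Ctsl at 0.57 and Lamp1 at 0.69. The medians of tested probes by brightness class also lay above 0 there, from 0.10 to 1.03. A match is a stretch of letters and no measure of binding.

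Bright probes leaned upward as a class on these arrays, and 4 member probes lay above 15 in mean log2 intensity. Among tested probes up to 12 in mean log2 intensity, 13.3% were called higher and 12.1% lower. From 12 to 15 these shares were 13.2% and 22.1%, from 15 to 16 they were 41.9% and 6.9%, and over 16 they were 89.6% and 0.549%. The class medians were 0.01, -0.03, 0.10 and 0.34. The 5 members up to 12 (Ctsa probe 3, Ctsb probe 2, Lamp2 probe 3, Npc1 probe 1 and Tfeb) held 1 higher and 1 lower call. The 8 members from 12 to 15 held 2 higher and 4 lower.

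Of the 3 members from 15 to 16, the bright Ctsb probe at 0.20 lay above its class median, while Ctsl at -0.01 and Ctsd probe 1 at -0.20 lay below it. Cd63, over 16, lay at 0.11 where its class stood at 0.34. In the deposited ratios, in which 10.8% of all tested probes were higher and 8.98% lower, 3 members were higher (Ctsa probe 3, Ctsb probe 1 and Lamp2 probe 1) and 3 lower (Ctsb probe 2, Ctsd probe 1 and Lamp2 probe 2). With the trend on intensity and base counts removed (13% of all tested probes higher, 13.1% lower), 2 were higher (Lamp2 probe 1 and Tfeb) and 6 lower (Ctsb probe 2, both Ctsd probes, Ctsl, and Lamp2 probes 2 and 3). The part of intensity and dye in these ratios was not tested apart from the antibody.

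**Figure D3:**
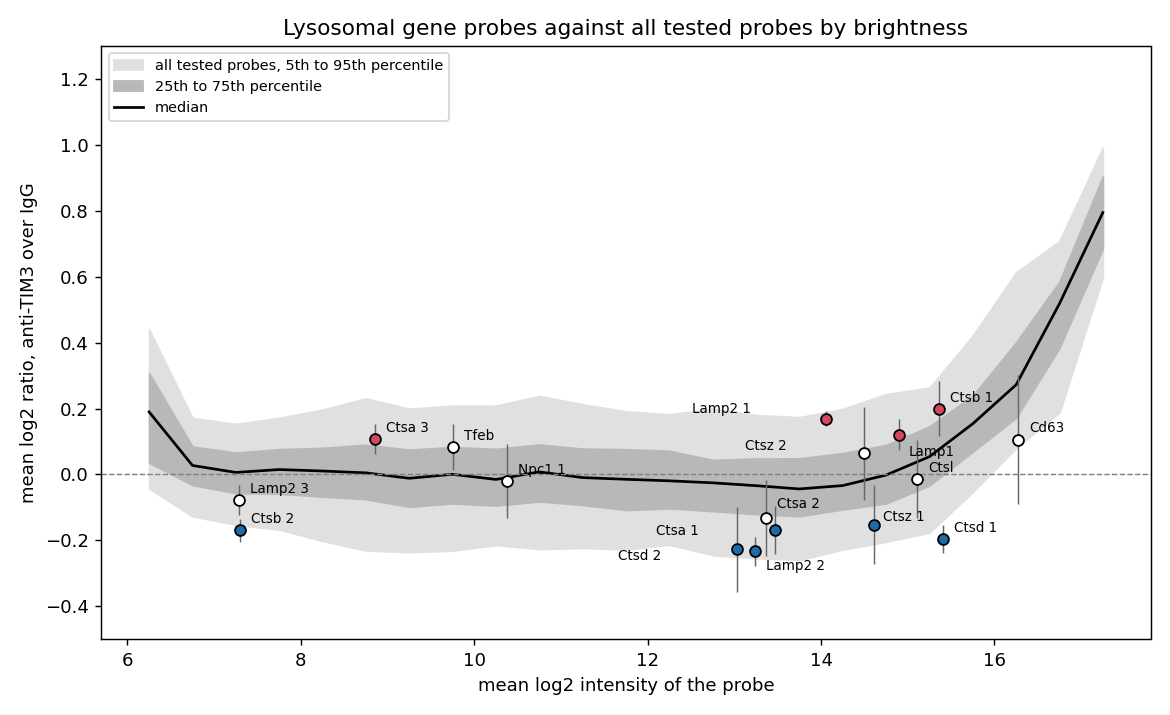
Mean log2 ratio of the 17 member probes (points, with the SD over 4 arrays; red higher, blue lower, white not passed) against their mean log2 intensity, over the median and percentile bands of all 26567 tested probes. The median of all probes climbs above 15, and Ctsd probe 1 at -0.20 lies below the 5th to 95th percentile band there. Under median centring alone that probe lies at 0.42, where the median of tested probes from 15 to 16 is 0.71.

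**Figure D4:**
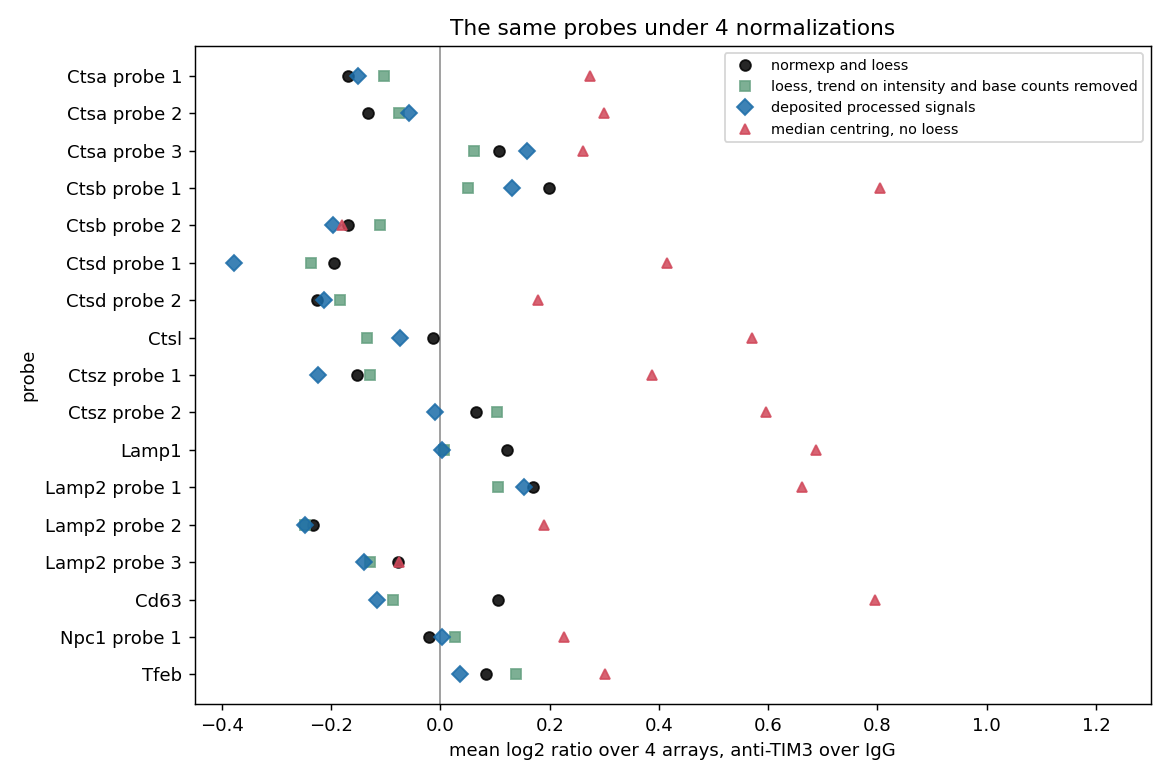
Mean log2 ratio over 4 arrays of each member probe (rows) under 4 ways of normalizing the arrays (symbols). Loess, trend removal and the deposited ratios keep Lamp2 probes 1 and 2 on opposite sides of 0. Median centring alone puts all member probes except Ctsb probe 2 and Lamp2 probe 3 above 0, with the median of all tested probes at 0.15. By mean log2 intensity (up to 12, 12 to 15, 15 to 16, over 16) the medians there were 0.10, 0.39, 0.71 and 1.03.

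The rest of the lysosomal programme was followed at 1 probe a gene, the brightest tested. Over all 17805 genes so read, 14.8% were called higher and 12.8% lower, with a median of 0.01. Their median log2 intensity was 9.44. It was 7.67 for the other cathepsins and 11.33 to 13.32 for the other lysosomal lists that follow. Of all tested probes from 12 to 15 in mean log2 intensity, 13.2% were called higher and 22.1% lower. The list counts were not tested against either share. With median centring alone limma called 0 of all tested probes (968 higher and 38 lower by an unadjusted p under 0.05), so the directions that follow are those after loess. None of 7 other tested cathepsins (Ctsc, Ctse, Ctsf, Ctsg, Ctsh, Ctsk and Ctso) passed limma's test at an adjusted p of 0.05. Of these, 2 had an unadjusted p under 0.05, none passed in the deposited ratios and 1 with the trend removed. Ctse, Ctsf, Ctsg and Ctsk were dim, at 7.02 to 7.67 in mean log2 intensity. Ctse and Ctsg were well above background in Cy3 on only 3 arrays. None of 5 tested cathepsin inhibitors passed; none had an unadjusted p under 0.05, and 1 passed in the deposited ratios. Cst3, which encodes cystatin C, was at -0.05 ± 0.02 (adjusted p = 0.268).

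Of 34 acid hydrolases and their activators, 4 were higher and 7 lower (median -0.01). In the deposited ratios 0 were higher and 5 lower. The higher calls numbered 2 without replicate 2 and 1 without replicate 4. Psap, the precursor of the saposins, was at -0.34 ± 0.19 (adjusted p = 0.00565), and its other probe at -0.25 also passed. Pla2g15, a lysosomal phospholipase, was at -0.27 ± 0.05, and Gusb, the beta-glucuronidase, at -0.23 ± 0.04. The other probe of Gusb read -0.14 and also passed. Scpep1, a serine carboxypeptidase, was at 0.27 ± 0.07, while its other probe read -0.10 and did not pass. In the deposited ratios Psap, Pla2g15 and Gusb passed with the same sign, and Scpep1 did not (0.09, adjusted p = 0.332).

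Of 21 other genes in a list of lysosomal membrane proteins, 3 were higher and 6 lower (median -0.08), and in the deposited ratios 1 and 5. The higher calls numbered 1 without replicate 2, 3 or 4, and the lower ones 4 without replicate 3 or 4. Npc2, a soluble cholesterol carrier that hands its load to NPC1 and was kept in this list as its partner, was at -0.27 ± 0.08 (adjusted p = 0.00241). Mcoln1, the lysosomal calcium channel TRPML1, was at -0.22 ± 0.04, and Sidt2 at -0.22 ± 0.09; their other probes, at -0.08 and 0.01, did not pass. Laptm4a was at 0.20 ± 0.10, but at 0.09 in the deposited ratios (adjusted p = 0.156), and its other probe read -0.09 and did not pass.

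The proton pump that acidifies the lysosome, the V-ATPase, had 4 subunit genes higher and 8 lower of 17 (median -0.12), and in the deposited ratios 3 and 5. With probes over 15 in mean log2 intensity left out, 1 was higher and 8 lower, and without replicate 4, 3 and 5. Atp6v1f stood at 0.51 ± 0.14, Atp6v1g1 at 0.42 ± 0.12 and Atp6v1e1 at -0.36 ± 0.19. Atp6v1f and Atp6v1g1 have bright probes (mean log2 intensity 15.67 and 16.16), and their deposited ratios were 0.27 and 0.19, which passed. Atp6v1a, the catalytic subunit, was at 0.35 ± 0.12 at 1 probe and at -0.19 at the other, and both passed. The other probes of Atp6v1f and Atp6v1g1 read 0.09 and 0.08 and did not pass. That of Atp6v1e1 read -0.35 and passed.

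Of 17 genes of lysosomal sorting, 2 were higher and 4 lower (median 0.01), and in the deposited ratios 1 and 2. With the trend removed 5 were higher and 3 lower. There were 4 higher and 2 lower without replicate 1, 1 and 4 without replicate 2 or 3, and 1 and 2 without replicate 4. The adaptors Gga1 and Gga2 were at -0.34 ± 0.08 and -0.31 ± 0.12. Sort1, the sorting receptor sortilin, was at 0.25 ± 0.07 at its brightest probe and at -0.16 at another, and both passed. Gnptab, which makes the mannose-6-phosphate tag, was at -0.17 ± 0.12. Its other probes read -0.11, which passed, and 0.07 and -0.02, which did not; in the deposited ratios its call was lost (adjusted p = 0.0696).

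Of 19 genes for the TFEB family of factors and their control, 2 were higher and 5 lower (median -0.06), and in the deposited ratios 1 and 2. Lower calls numbered 2 without replicate 1 or 4, and higher calls 1 without replicate 2, 3 or 4. Tfe3, a close relative of Tfeb, was at -0.23 ± 0.11 (adjusted p = 0.00838). The 14-3-3 genes Ywhaz and Ywhab, whose products hold phosphorylated TFEB in the cytoplasm, were at -0.26 ± 0.11 and -0.18 ± 0.14, and Fnip2, a partner of folliculin, at 0.22 ± 0.11. The other probes of Tfe3, Ywhaz and Ywhab, at -0.05, -0.11 and -0.01, did not pass, and in the deposited ratios the calls of Ywhaz, Ywhab and Fnip2 were lost (adjusted p = 0.0534, 0.0679 and 0.0526). Of 16 tetraspanins other than Cd63, 2 were higher (Cd81, 0.22 ± 0.07, and Tspan10, 0.20 ± 0.05) and 1 lower (Cd82, -0.22 ± 0.06), with a median of 0.01. Cd81 lay at 0.07 (adjusted p = 0.302) in the deposited ratios and at 0.03 (0.606) with the trend removed.

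**Figure D5:**
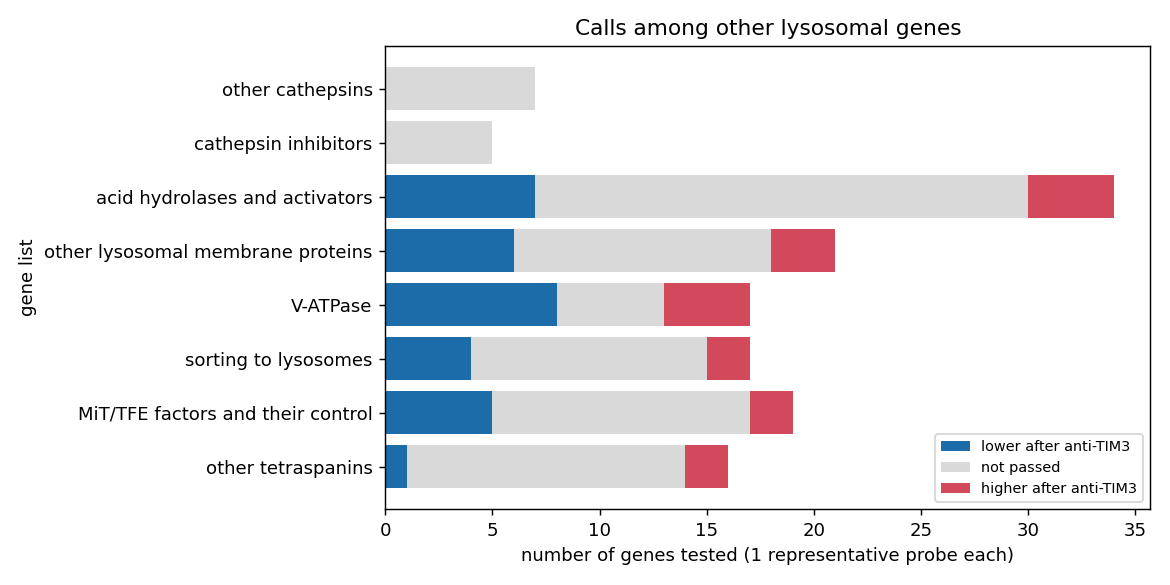
Number of genes called lower (blue), not passed (grey) and higher (red) in 8 lists of other lysosomal genes, each gene at its brightest tested probe. The V-ATPase list (median log2 intensity 13.05) holds 8 lower and 4 higher of 17. The lists of other cathepsins (7.67) and of their inhibitors (13.32) hold no calls. These directions are those after loess. Of all tested probes from 12 to 15 in mean log2 intensity, 22.1% were called lower and 13.2% higher.

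The labelled cell type was checked against its markers. All 8 melanocyte lineage markers were well above background in Cy3 and Cy5 on every array. Of the 8, 5 were called higher (1 from the deposited ratios and 5 with the trend removed), with a median of 0.29. These are bright probes, with a median log2 intensity of 16.29. Of 10 macrophage markers, genes of a cell type rich in cathepsins, 4 were so on every array: Lyz2, Tyrobp, Fcer1g and Cd68. Adgre1 and Itgam were so on none. Ptprc was well above background on 1 array in each channel. In Cy5, Csf1r was so on 3 arrays, Laptm5 on 1 and Cd14 on 4. Of the 6 that were tested Tyrobp (0.33) and Lyz2 (0.13) were higher and Cd14 (-0.18) lower. In the deposited ratios Tyrobp alone passed, at 0.47. Cd14 was well above background in Cy3 on 1 array only, and the other probe of Lyz2 read 0.0045 and did not pass. Of 7 fibroblast markers 2 were so on every array, Col1a1 and Col1a2, and Dcn and Thy1 on none. Col3a1, Lum and Pdgfra were well above background in Cy5 on all 4 arrays. Of the 5 tested, Col1a1 (0.13) and Col3a1 (0.12) were higher, and neither passed with the trend removed. Their other probes, at -0.02 and 0.07, did not pass. In the deposited ratios Col3a1 (0.45) and Pdgfra (0.46) passed. In Cy3, Col3a1 and Lum were well above background on 0 arrays and Pdgfra on 2. The part of such markers in the ratios of the lysosomal genes was not tested. Each array had 21162 to 22112 probes well above background in Cy3 and 25739 to 28424 in Cy5, and log2 ratios over all tested probes correlated at 0.523 to 0.746 between arrays. No member spot was saturated.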

How the data were processed

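RNA of 4 antibody-treated and 4 IgG-treated cultures was measured on 4 Agilent 2-colour arrays (1 slide, 1 scan day). The authors extracted the intensity values with Agilent's Feature Extraction software, version 9.5.1.1 in the file headers and 9 in the submitters' processing notes, and the file headers place probes on mm7. The log10 ratios deposited by the authors come from spatially detrended, dye-normalised signals, per the file headers. The deposited value table equals them exactly (largest difference 0.0; column medians 0.0). These ratios, as log2, are the "deposited ratios" of the text, and their direction is that of the labels.

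Here, mean intensity was corrected by normexp (offset 50) against median local background, and loess was run within each array with no weight on control spots. Outlier spots were dropped and spots of a probe averaged (limma 3.58.1, R 4.3.3). A probe was tested where at least 3 of 4 arrays put it well above background in Cy3 or Cy5. lmFit and eBayes tested the mean against 0, with Benjamini-Hochberg adjustment over 26567 probes and a threshold of 0.05. Probe differences were tested by exact sign flips over arrays. A spline (5 degrees of freedom) on intensity and base counts gave the trend-removed values. The fit was tested on simulated data, and the number of arrays limits the precision. RefSeq accessions named 22951 probes, and 8437 kept the file's name. From each list, up to 4 genes that passed were named, by the largest mean ratio in size; Cst3 and the other cathepsins were named after their values were seen. For Lamp2 probe 2, the member with the largest mean in size, the 3 nearest genes were taken; 1 of them and 1 probe sequence are not reported here. The genes and lists were chosen with earlier results of these data known.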

Additional observations from a re-analysis of the deposited data

How the results depend on the processing

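The calls of Ctsb probe 2, Ctsd probe 1 and Lamp2 probes 1 and 2 were lost only under median centring, a fit of the channels as separate samples and a test against a 1.2-fold change, of the alternatives run on them. Under median centring 0 member probes were higher and 0 lower by limma (5 and 0 at an unadjusted p under 0.05), and over all tested probes 0 and 0 (968 and 38). There Ctsa probes 1 and 2 lay at 0.27 and 0.30, Ctsd probes 1 and 2 at 0.415 and 0.18, Ctsl at 0.57, Ctsz probe 1 at 0.39, Lamp2 probe 2 at 0.19 and Npc1 at 0.23. The differences of Ctsa probes 1 and 2 from probe 3 turned to 0.012 and 0.039, and that of Lamp2 probes 2 and 3 to 0.26. The classes of brightness named in the report then had medians of 0.10, 0.39, 0.71 and 1.03.

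With the channels fitted as separate samples, without the array as a replicate block, 0 and 0 member probes were called (0 and 2 by unadjusted p), against 329 and 253 of all; against 1.2-fold, 0 and 0 (0 and 0 unadjusted), against 43 and 13. Higher member probes numbered 2 with an offset of 10, and 2 with the trend removed. In the deposited ratios 3 were lower, and 2385 of all. There Cd63 lay at -0.12, Ctsz probe 2 at -0.011, Npc1 at 0.0033 and the Ctsd probe difference at -0.17. With the trend removed Cd63 lay at -0.087, Npc1 at 0.027 and the Ctsd difference at -0.053, and with array weights Npc1 at 0.014 and the Ctsd difference at -0.0013. Except where the setting itself removes probes or samples, the cause was not tested.

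Leaving out each replicate in turn left 2 higher member probes each time and 4 to 7 lower, with 2140 to 3516 higher and 2079 to 2738 lower of all probes. Ctsl then ranged from -0.067 to 0.028 and Npc1 from -0.057 to 0.027. Signal over background limits Npc1 probe 2, which gives no ratio.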
